A study of Mus musculus with 6 samples.

Results

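The 9 genes described here mark pericytes, the cells wrapped around capillaries and small vessels, and leave out the contractile proteins that pericytes share with smooth muscle. They were chosen by name, with earlier results of these data known. Every probe set of the array whose annotation names only 1 of them was used. All 9 were measured, by 17 probe sets, among 18193 genes and 45037 non-control probe sets. The RNA came from freshly sorted, untreated bone marrow cells of adult wild-type C57BL/6 mice and was hybridized to Affymetrix MOE430_2 arrays. Both groups of cells were negative for CD45, TER119 and CD31, the surface markers of leukocytes, erythroid cells and endothelium, and 3 arrays measured Ebf2-positive and 3 Ebf2-negative cells of that gate. Ebf2 is a transcription factor of the early B-cell factor family that is found in mesenchymal cells. The labels say neither how Ebf2 was detected nor whether each replicate was a different animal, and the p-values speak for the spread among these arrays alone, which can be technical. Values are log2 RMA signals, a normalized brightness of a probe set, and a difference is the Ebf2-positive mean less the Ebf2-negative mean of 3 arrays each. A gene is called where limma's adjusted p is under 0.05.

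Pericytes steady the endothelium, take part in setting capillary blood flow and, in bone marrow, lie where stromal cells that support blood formation are found. No single gene defines them, and they are recognised by a combination. Regulators of G-protein signalling (RGS proteins) shorten the response to vasoactive receptors by speeding GTP hydrolysis on G alpha subunits. ATP-sensitive potassium (K-ATP) channels couple the membrane potential to the energy state of the cell, and a few small mitochondrial proteins and surface proteins complete the set. Several of these genes are also used by other cells: Mcam by endothelium, Cspg4 by glial progenitors and Anpep by myeloid cells and fibroblasts.

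The arrays followed their labels at the gene of the sort. Ebf2 was at 8.13, 8.80 and 8.04 on the Ebf2-positive arrays and at 3.10, 4.02 and 3.84 on the Ebf2-negative ones, a difference of 4.67 (SE 0.33; limma, adjusted p = 0.000476). The array medians of log2 signal lay between 3.69 and 3.80. Markers of other cells moved with the groups. All 9 measured erythroid genes were called lower in Ebf2-positive cells, with mean log2 signals per array of 4.91 to 5.64 against 9.99 to 10.24. All 9 measured fibroblast markers were called higher, at 11.01 to 11.39 against 5.22 to 6.31. The shares over all genes were 13.6% lower and 10.8% higher. The part of this difference in cell mix in the results below was not tested, and in sorted bulk samples fewer cells of a type and less RNA per cell cannot be told apart.

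All 9 pericyte marker genes were higher in Ebf2-positive cells, by 3.62-fold for Anpep, whose Ebf2-negative signals were below the array medians, to 96.8-fold for Rgs5. Each passed limma's test with Benjamini-Hochberg adjustment over all genes, where 10.8% of all genes were called higher, and the median difference was 4.50 against 0.07 over all genes. In all 9 the lowest Ebf2-positive array stood above the highest Ebf2-negative array, a property of 21.8% of all genes. Of their 17 probe sets, 16 were called higher, against 6.39% of all probe sets, and 0 lower, and the same number separated the groups, against 19.1% of all probe sets. The members fell into a higher range, the RGS and K-ATP genes and Higd1b with differences of 4.50 to 6.60, and a lower range, Ndufa4l2 and the surface proteins, with differences of 1.86 to 3.35. These ranges were read from the values and were not tested against each other. Averaged over the 9 genes, the log2 signal was 8.32, 8.91 and 8.68 on Ebf2-positive replicates 1 to 3 and 4.14, 4.64 and 4.0 on the Ebf2-negative replicates.

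**Figure D1:**
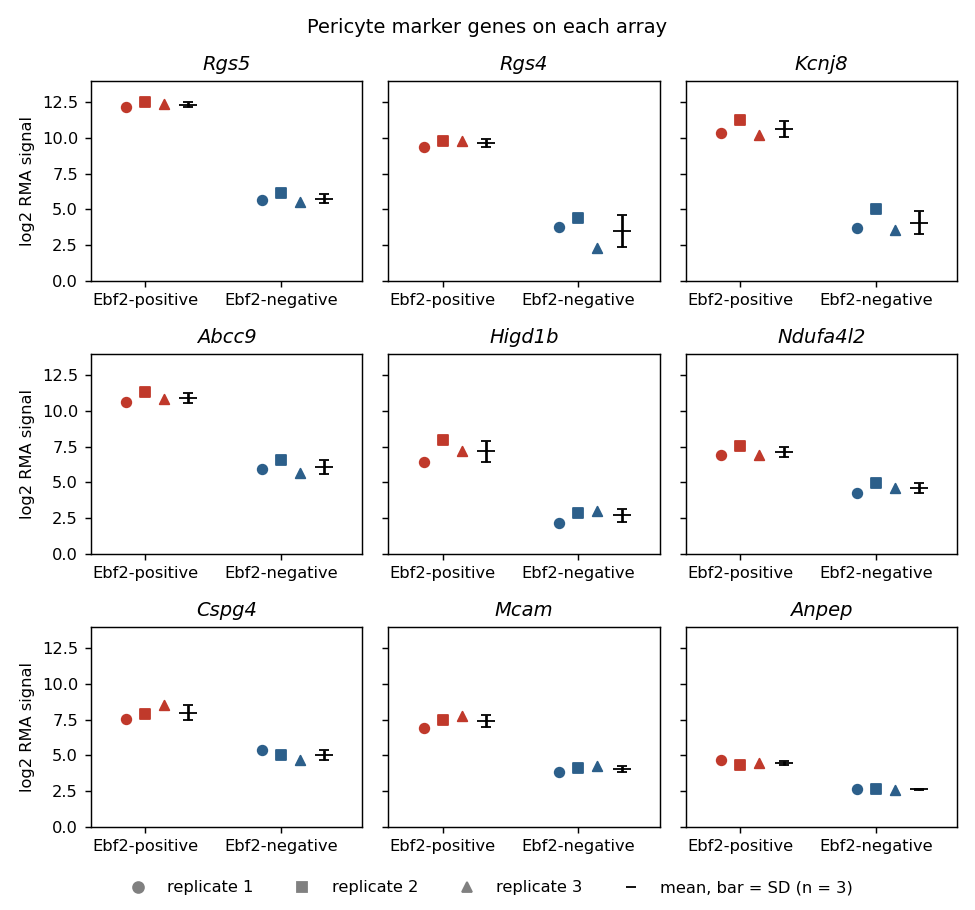
Log2 RMA signal of each pericyte marker gene on every array, with a symbol for each replicate number and the mean ± SD of 3 arrays at the right of each group. In every panel the 3 Ebf2-positive arrays lie above the 3 Ebf2-negative arrays, with the widest gap for Rgs5 and the narrowest for Anpep.

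Rgs5, an RGS protein that marks pericytes in many tissues, had the largest difference of the members. Its main probe set was at 12.15, 12.51 and 12.38 on the Ebf2-positive arrays and at 5.63, 6.12 and 5.50 on the Ebf2-negative arrays. The arrays of each group lay close together, with SDs of 0.18 and 0.33, and the groups were far apart. The difference was 6.60 (SE 0.24; adjusted p = 0.000116), place 14 from the top among all 18193 genes. The other 3 Rgs5 probe sets were also called higher, with differences of 6.85, 5.86 and 3.14, so the size depended on the probe set while the direction did not. The sets with differences of 5.86 and 3.14 are of types that can cross-hybridise with other transcripts.

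Rgs4, a close relative of Rgs5 with the same action on G alpha subunits, had a difference of 6.18 (SE 0.54; adjusted p = 0.000836). It was at 9.34, 9.82 and 9.80 in Ebf2-positive and at 3.77, 4.41 and 2.25 in Ebf2-negative cells. The Ebf2-positive arrays had an SD of 0.27, whereas Ebf2-negative replicate 3 was well below the other Ebf2-negative arrays. Its 2.25 lies below the median of that array, 3.72, where signals compress, so the size of the difference is not exact. A second Rgs4 probe set differed by 3.19 (SE 0.51; adjusted p = 0.0104 among probe sets), with 6.50, 8.57 and 7.83 against 4.49, 4.33 and 4.51. The third was not called: it stood at 2.06, 2.27 and 2.06 against 2.0, 2.06 and 1.90, a difference of 0.14 (95% interval -0.25 to 0.53; adjusted p = 0.621), close to the lower end of the signal range on every array. The mean of the 3 sets still gave a called difference of 3.17. Rgs4 is thus the member whose size of change rested most on the choice of probe set.

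Kcnj8, the pore-forming subunit of the vascular K-ATP channel, was at 10.37, 11.27 and 10.23 in Ebf2-positive and at 3.67, 4.99 and 3.51 in Ebf2-negative cells. Replicate 2 was the highest array of both groups, and the groups did not come near each other. The difference was 6.56 (SE 0.48; adjusted p = 0.000504), or 94.7-fold, place 15 among all genes and next to Rgs5. It was measured by a single probe set.

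Abcc9, the sulfonylurea receptor that regulates that pore, was at 10.60, 11.32 and 10.83 in Ebf2-positive and at 5.95, 6.57 and 5.63 in Ebf2-negative cells. As for Kcnj8, replicate 2 was highest in both groups, without overlap. The difference was 4.87 (SE 0.32; adjusted p = 0.000384), or 29.2-fold, and the other probe sets gave 4.89 and 5.32. The 3 Abcc9 probe sets therefore differed by far less among themselves than those of Rgs5 or Rgs4. The main Abcc9 set is of a type that can cross-hybridise with other transcripts, and the other Abcc9 sets are not.

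**Figure D2:**
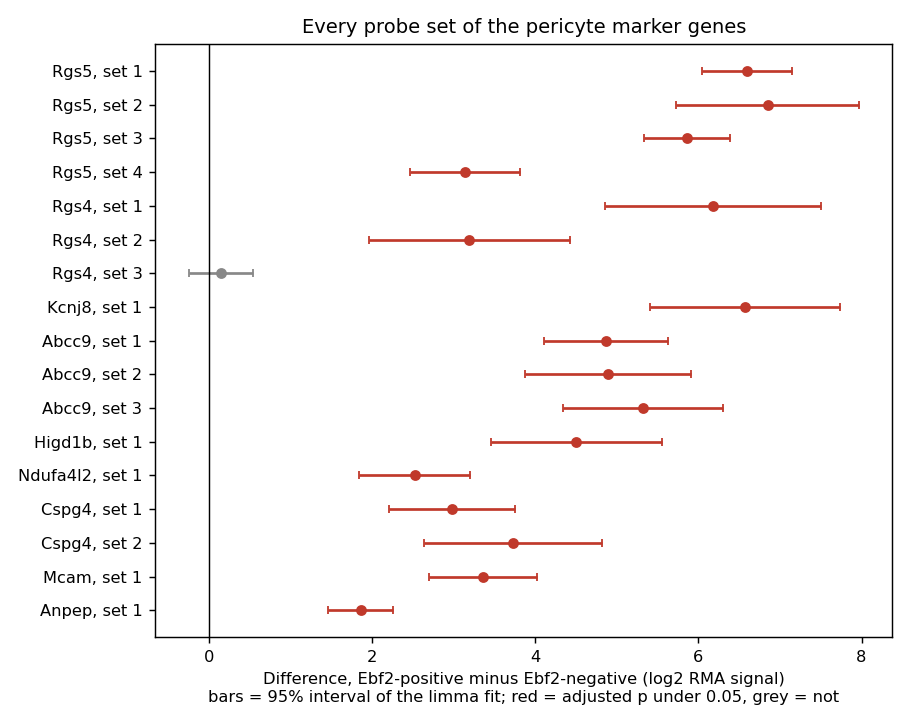
Difference between Ebf2-positive and Ebf2-negative cells for each of the 17 probe sets, on the log2 scale, with the 95% interval of the limma fit over all probe sets. Sets of a gene are numbered from the brightest, and 16 of the 17 intervals lie above 0, the exception being Rgs4 set 3.

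The ratio of the K-ATP subunits was compared within each array. Within an array, the log2 ratio of Kcnj8 to Abcc9 signal was -0.23, -0.05 and -0.60 in Ebf2-positive and -2.28, -1.58 and -2.12 in Ebf2-negative cells. This ratio, which does not depend on how an array is scaled, was higher by 1.70 (SE 0.27) in Ebf2-positive cells, and the groups did not overlap. The two-sided exact permutation p was 0.1, the smallest that 3 against 3 arrays allow, so this test could not pass a threshold of 0.05. On Ebf2-negative replicates 1 and 3 Kcnj8 was at 3.67 and 3.51, below the array medians, which limits the precision of their ratios. With the mean of the Abcc9 probe sets the difference of the ratio was 1.54. For Rgs5 over Rgs4 the ratio was 2.81, 2.68 and 2.58 against 1.86, 1.71 and 3.25, and the groups overlapped (difference 0.42, SE 0.49; two-sided exact permutation p = 0.4). That difference became 2.44 with the mean of each gene's probe sets and 0.91 without Ebf2-negative replicate 3, and so has no settled size. On Ebf2-negative replicate 3 Rgs4 was at 2.25, below the array median, which limits the precision of the 3.25. Levels of different probe sets cannot be compared, and only the change of each ratio between groups carries information.

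**Figure D3:**
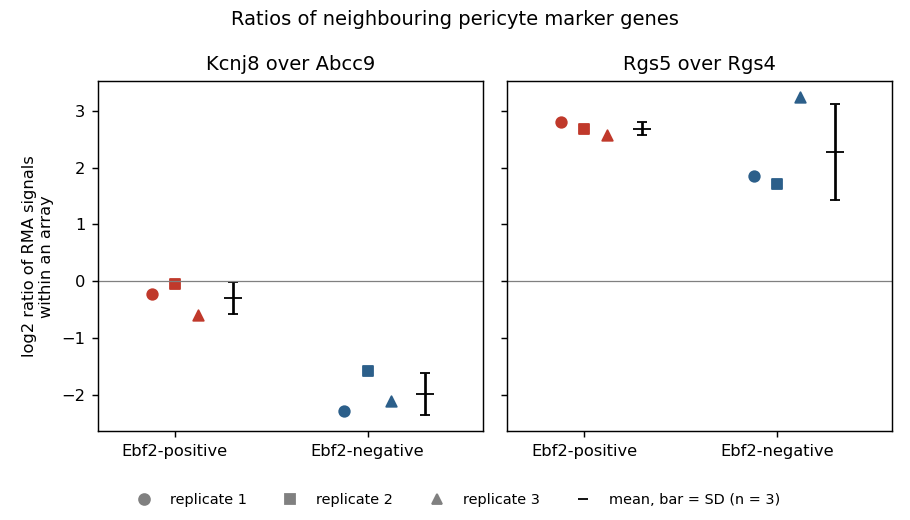
Log2 ratio of Kcnj8 to Abcc9 signal and of Rgs5 to Rgs4 signal within each array, with the mean ± SD of 3 arrays per group. The Kcnj8 ratios of the groups are apart by 1.70, while Ebf2-negative replicate 3, at 3.25, places the Rgs5 ratios of the groups in overlap.

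Higd1b, a small mitochondrial membrane protein of the hypoxia-induced gene domain family, was at 6.44, 7.93 and 7.16 in Ebf2-positive and at 2.15, 2.88 and 3.01 in Ebf2-negative cells. Its Ebf2-positive arrays were the most spread of the members, with an SD of 0.75, yet all were above the Ebf2-negative arrays. The difference was 4.50 (SE 0.43; adjusted p = 0.00111), or 22.6-fold. The Ebf2-negative values lie in the dim part of the range, where array signals compress, so the fold is not exact.

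Ndufa4l2, a mitochondrial protein related to a respiratory chain subunit and induced by the hypoxia factor HIF, was at 6.91, 7.56 and 6.93 against 4.27, 4.98 and 4.59. The groups were apart by more than their spread, with SDs of 0.37 and 0.35. The difference was 2.52 (SE 0.28; adjusted p = 0.00194), or 5.72-fold.

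Cspg4, the NG2 proteoglycan of the pericyte surface, was at 7.54, 7.93 and 8.53 in Ebf2-positive and at 5.38, 5.0 and 4.69 in Ebf2-negative cells. The difference was 2.98 (SE 0.32; adjusted p = 0.00168), or 7.87-fold. A second probe set, at 7.71, 9.31 and 7.76 against 4.37, 4.65 and 4.57, differed by 3.73 (SE 0.45). Both sets separated the groups, although the highest Ebf2-positive array was replicate 3 in the first and replicate 2 in the second.

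Mcam, the adhesion molecule CD146 of pericytes and endothelium, was at 6.92, 7.49 and 7.79 against 3.79, 4.11 and 4.23. The difference was 3.35 (SE 0.28; adjusted p = 0.000706), or 10.2-fold, the largest among the surface proteins in their main probe sets. Anpep, the aminopeptidase CD13, had the smallest difference of the members. It was at 4.63, 4.34 and 4.46 against 2.61, 2.66 and 2.59, a difference of 1.86 (SE 0.18; adjusted p = 0.00111). Its arrays were the most alike of the members, with SDs of 0.15 and 0.04, and the groups did not overlap. The Ebf2-negative values lie below the array medians, where signals compress, so the 3.62-fold difference is not exact.

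Replicate 2 was the highest array of its group for 6 of the 9 genes in each group, 5 of them the same. Rgs5, Rgs4, Kcnj8, Abcc9 and Ndufa4l2 were highest there in both groups, Higd1b in the Ebf2-positive group alone and Anpep in the Ebf2-negative group alone. Of all genes, 34.6% were highest on Ebf2-positive and 35.3% on Ebf2-negative replicate 2. Endothelial markers had their highest mean on the same arrays. Ebf2-positive replicate 2 had 7.21 (6.16 and 6.39 on the others) and Ebf2-negative replicate 2 had 6.25 (5.19 and 5.09 on the others). The pattern was not particular to endothelium. Fibroblast markers (11.39 and 6.31), granulocyte and monocyte markers (9.23 and 8.88) and other mural genes (8.01 and 5.16) also had their highest means on these arrays. The remaining lists described here did not in both groups. Without both arrays numbered 2, all 9 members were still called higher, with a median difference of 4.22.

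The endothelial list bears on Mcam and Rgs5, which endothelium can also express. Of 13 endothelial markers, 3 were called higher and 0 lower, beside shares of 10.8% and 13.6% over all genes. The median difference was 0.79, with mean log2 signals per array of 6.16 to 7.21 in Ebf2-positive and 5.09 to 6.25 in Ebf2-negative cells. The 3 were Tek, the angiopoietin receptor (2.51, adjusted p = 0.00565), Esam, an adhesion molecule (2.48, adjusted p = 0.0062), and Flt1, a receptor of vascular endothelial growth factor (1.54, adjusted p = 0.0396). Flt1 lost its call when any of 5 arrays was left out, all but Ebf2-negative replicate 2, leaving 2 genes called. Pecam1, the gene of the CD31 used in the gate, was at 3.41, 4.15 and 3.15 against 2.75, 3.80 and 2.48 (adjusted p = 0.403). Outside the arrays numbered 2 these signals lay below the array medians, where signals compress, so the missing call says little. Cdh5, which defines endothelial junctions, was at 5.47, 7.94 and 5.40 against 4.25, 5.59 and 4.49 (adjusted p = 0.211). The part of endothelial RNA in the Mcam and Rgs5 differences was not tested.

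Lists for the other possible sources of Cspg4 and Anpep gave the following values, to be read beside 10.8% called higher and 13.6% called lower over all genes. For Anpep the sources include fibroblasts, whose 9 measured markers were all called higher, with a median difference of 5.98. Of 6 measured Schwann cell markers, 1 was called higher, Ngfr (1.66, adjusted p = 0.0208), and 1 lower, Mbp (-2.89, adjusted p = 0.0236), with list means of 4.29 to 5.27 in Ebf2-positive and 4.67 to 4.97 in Ebf2-negative cells. Ngfr lost its call without Ebf2-positive replicate 1 or any Ebf2-negative replicate, and Mbp without any Ebf2-negative replicate. Sox10, the factor that defines the Schwann lineage, was at 5.41, 5.14 and 5.23 against 4.76, 4.70 and 4.71 and was not called (adjusted p = 0.0749). Of 10 granulocyte and monocyte markers, 2 were called higher, Mpo (1.42, adjusted p = 0.0157) and Prtn3 (1.53, adjusted p = 0.0254), both proteins of myeloid granules, and 0 lower. The list mean was 7.25 to 9.23 against 7.91 to 8.88, and replicate 2 was highest in both groups. Anpep was the lowest of its group on Ebf2-positive replicate 2 and the highest of its group on Ebf2-negative replicate 2. Its Ebf2-negative signals spanned only 2.59 to 2.66, below the array medians, so their order carries little information. The parts of myeloid and of fibroblast RNA in the Anpep difference were not tested. Without Ebf2-negative replicate 3 Mpo was not called (adjusted p = 0.0643), and Prtn3 was not called without Ebf2-positive replicate 1 or 2 or Ebf2-negative replicate 1 or 3 (up to 0.0753). Without Ebf2-positive replicate 2 the count was 1 higher and 5 lower, and without Ebf2-negative replicate 3 it was 0. Of 8 general leukocyte markers 2 were called lower, Ikzf1 (-3.96, adjusted p = 0.000988) and Laptm5 (-2.64, adjusted p = 0.0127), while Ptprc, the gene of CD45, was at 6.68, 6.76 and 3.59 against 8.78, 7.98 and 8.23 (adjusted p = 0.0698). Laptm5 was not called without Ebf2-negative replicate 3 (adjusted p = 0.0547), and Ptprc was called lower without Ebf2-positive replicate 3 (adjusted p = 0.0162). Without Ebf2-positive replicate 2, 5 of the 8 were called lower.

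The RGS genes and the K-ATP genes each form a pair of neighbours in the genome. In the RefSeq annotation of GRCm38.p6, Rgs5 and Rgs4 follow each other on chromosome 1 and Kcnj8 and Abcc9 on chromosome 6, with no other protein-coding gene between them. The next gene on each side of every member was looked up after the values were seen. Of these 14 further neighbours, 12 were measured, and 3 were called higher, 4 lower and 5 not called, where 10.8% of all genes were called higher and 13.6% lower. Beside Rgs5 lies Nuf2, a kinetochore protein, which was lower in Ebf2-positive cells (difference -3.56, SE 0.24; adjusted p = 0.000408). Beside the K-ATP pair, Ldhb, a lactate dehydrogenase subunit, was higher by 1.13 (SE 0.21; adjusted p = 0.0104), and Cmas, an enzyme of sialic acid activation, differed by -1.36 (adjusted p = 0.0136), although not without Ebf2-negative replicate 1 or 2 (up to 0.0539). The neighbours with the largest positive differences were Gjc1, a gap junction protein of vascular muscle beside Higd1b (4.15, SE 0.46; adjusted p = 0.00177), and Snx33, a sorting nexin beside Cspg4 (3.35, SE 0.47; adjusted p = 0.00404). The high values at these loci thus did not extend over all measured neighbours.

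Promoter sequences are shown for the neighbouring pairs, whose members were higher together, and for Mcam, the only one of the promoters searched with an EBF core motif. They are the 250 bases before the annotated start, 5′ to 3′ on the gene's strand, from RefSeq on GRCm38.p6, and 7 of the 9 members matched the table (all but Higd1b and Ndufa4l2). Rgs5 lies at chr1:169655251-169655500 on the plus strand and Rgs4 at chr1:169747643-169747892 on the minus strand. Kcnj8 lies at chr6:142571615-142571864 and Abcc9 at chr6:142702275-142702524, both on the minus strand, and Mcam at chr9:44134408-44134657 on the plus strand. Capitals mark the EBF core motif CCCNNGGG, where N is any base, or TGGGAA, the core recognised by RBPJ, the DNA-binding partner of Notch receptors.
Rgs5: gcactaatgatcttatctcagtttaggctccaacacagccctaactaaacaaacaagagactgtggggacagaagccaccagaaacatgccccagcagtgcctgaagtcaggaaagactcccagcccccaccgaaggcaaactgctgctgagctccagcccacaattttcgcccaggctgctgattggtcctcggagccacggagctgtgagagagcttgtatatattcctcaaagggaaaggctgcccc
Rgs4: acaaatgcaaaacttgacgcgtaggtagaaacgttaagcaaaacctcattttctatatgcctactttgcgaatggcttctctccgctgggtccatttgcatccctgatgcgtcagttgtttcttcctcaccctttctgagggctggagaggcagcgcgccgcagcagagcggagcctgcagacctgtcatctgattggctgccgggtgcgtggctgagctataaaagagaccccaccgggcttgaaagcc
Kcnj8: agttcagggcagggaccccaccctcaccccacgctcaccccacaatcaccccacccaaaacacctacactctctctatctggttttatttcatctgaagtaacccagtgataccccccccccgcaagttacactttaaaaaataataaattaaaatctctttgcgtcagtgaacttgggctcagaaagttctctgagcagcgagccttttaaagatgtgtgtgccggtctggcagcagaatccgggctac
Abcc9: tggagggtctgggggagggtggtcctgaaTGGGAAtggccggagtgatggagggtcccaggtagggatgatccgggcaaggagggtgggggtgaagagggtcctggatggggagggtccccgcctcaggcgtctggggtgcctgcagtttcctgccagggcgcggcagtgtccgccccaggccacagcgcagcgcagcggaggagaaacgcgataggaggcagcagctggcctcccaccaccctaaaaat
Mcam: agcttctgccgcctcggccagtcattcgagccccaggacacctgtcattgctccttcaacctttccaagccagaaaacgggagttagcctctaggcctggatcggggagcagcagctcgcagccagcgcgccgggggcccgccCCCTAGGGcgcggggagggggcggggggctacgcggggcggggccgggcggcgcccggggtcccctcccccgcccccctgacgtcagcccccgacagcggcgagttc
Both strands were searched, and no matches of the motifs overlapped. CCCNNGGG was found in 1 of the 7 promoters, that of Mcam, and in 11.7% of 27025 promoters of the same length. TGGGAA was found in 1 of the 7, that of Abcc9, and in 21.5% of all, and the CArG box of smooth muscle genes in 0 of the 7 and 1.4% of all. The promoters also differed in composition: G and C made up 53.6% of the bases for Rgs5 and for Rgs4, 49.2% for Kcnj8, 66.8% for Abcc9 and 73.6% for Mcam, where the median of all promoters was 52.0%. Neither motif was shared by the members of a pair in these windows.

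Relatives of the members were called in both directions. Of 17 measured family genes (other RGS proteins of the same subfamily, the other K-ATP subunits, HIG1 and NDUFA4 proteins, and relatives of the surface proteins), 1 was called higher and 3 lower, with a median difference of 0.08, where 10.8% of all genes were called higher and 13.6% lower. The counts were 0 and 2 without Ebf2-negative replicate 1 or 3. Rgs16 was the higher gene (1.06, adjusted p = 0.0242), a call lost without Ebf2-positive replicate 3 or Ebf2-negative replicate 1 or 3. Rgs18, an RGS protein of platelets and blood cells, was at 2.58, 3.71 and 2.62 in Ebf2-positive and at 7.10, 6.15 and 6.86 in Ebf2-negative cells. This difference of -3.74 (SE 0.40; adjusted p = 0.00168) had the opposite sign to those of Rgs5 and Rgs4. Rgs2 was not called (-1.34, adjusted p = 0.154).

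The K-ATP subunits of pancreatic beta cells were not called. Kcnj11 was at 5.63, 5.70 and 5.82 against 5.59, 5.51 and 5.34 (difference 0.24, adjusted p = 0.400), and Abcc8 differed by 0.86 (adjusted p = 0.158). Among the mitochondrial relatives, Higd1a was lower, at 8.34, 8.04 and 8.63 against 9.51, 9.53 and 9.86 (difference -1.30, SE 0.23; adjusted p = 0.00902), where Higd1b was higher. Ndufa4 differed by -1.29 (adjusted p = 0.0422), the opposite sign to Ndufa4l2, but was called with 1 array left out only for Ebf2-positive replicate 2 (adjusted p up to 0.134 for the others).

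G alpha subunits, the class of protein on which RGS proteins act, had smaller differences than Rgs5 and Rgs4. The list covers the class and was not limited to subunits on which Rgs5 or Rgs4 act. Of 12 measured, 3 were called higher and 2 lower, with a median difference of 0.26, beside shares of 10.8% and 13.6% over all genes. Between 1 gene, without Ebf2-negative replicate 3, and 4, without Ebf2-positive replicate 3, were called with 1 array left out: 2 without Ebf2-positive replicate 1 and 3 without each of the others. Gna11, a subunit that couples receptors to phospholipase C, was at 9.19, 9.05 and 8.80 against 7.24, 7.27 and 6.72 (difference 1.94, SE 0.23; adjusted p = 0.00243). Gnaq, its close relative, differed by 1.14 (adjusted p = 0.0446), Gna12 by -1.31 (adjusted p = 0.0459) and Gna15, a subunit of blood cells, by -1.37 (adjusted p = 0.0201). Gnas, the subunit that stimulates adenylyl cyclase, differed by 0.86 (adjusted p = 0.0492). Each of these calls but that of Gna11 was lost when single arrays were left out, with adjusted p up to 0.149, 0.145, 0.0774 and 0.164.

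Ndufa4l2 is a target of HIF, and other HIF targets were in part higher. Of 14, 7 were called higher and 0 lower, with a median difference of 0.70, beside shares of 10.8% and 13.6% over all genes. The count rests on single arrays: 3 were called higher without Ebf2-negative replicate 2, and 4 higher and 1 lower without Ebf2-positive replicate 1. Vegfa, a vascular growth factor among the 7 (1.47), was not called with any 1 array left out (adjusted p 0.0596 to 0.123). Slc2a1, a glucose transporter, was at 11.41, 9.51 and 11.03 against 4.63, 5.45 and 5.59 (difference 5.43, SE 0.54; adjusted p = 0.00125), Bhlhe40, a transcriptional repressor, differed by 2.90 (adjusted p = 0.000705), and Ndrg1, a stress-induced protein, by 2.16 (adjusted p = 0.00156). Adm, the vasodilator peptide adrenomedullin, differed by 4.17 (adjusted p = 0.0199), and was not called without Ebf2-positive replicate 1 or 2 or Ebf2-negative replicate 2 (adjusted p up to 0.0538). Egln3, the HIF hydroxylase, and Pdk1, a kinase of pyruvate dehydrogenase, were not called (0.38 and -1.60, adjusted p = 0.544 and 0.107). Cox4i2, a hypoxia-linked subunit of cytochrome oxidase found in pericytes, was counted with the other mural genes and not among the 14. It was at 3.04, 3.60 and 3.51 against 3.15, 3.38 and 3.40 (adjusted p = 0.836), below the median of every array, where signals compress.

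Other genes that mark mural cells in vascular atlases were in part higher. Of 20 listed, 16 were measured, and 10 were called higher, 0 lower and 6 not called, with a median difference of 3.24. Over all genes, 10.8% were called higher and 13.6% lower. Vtn, the adhesive protein vitronectin, was at 9.94, 10.63 and 10.35 against 3.63, 3.77 and 4.01 (difference 6.51, SE 0.24; adjusted p = 0.000134), close to that of Rgs5. Art3, a surface protein of the ADP-ribosyltransferase family (5.35, SE 0.43), Cd248, the stromal surface protein endosialin (5.07, SE 0.21), and Enpep, the angiotensin-cleaving aminopeptidase related to Anpep (5.06, SE 0.32), followed. Atp13a5, a marker of brain pericytes, was at 2.63, 2.04 and 2.13 against 2.01, 2.30 and 1.93 and was not called (adjusted p = 0.617). All of its signals lay below the array medians.

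Of 20 mural regulators, the receptors and transcription factors that form mural cells, 11 were called higher and 0 lower, with a median difference of 1.65. The shares over all genes were 10.8% higher and 13.6% lower. Pdgfrb, the receptor through which endothelium recruits pericytes, was at 12.26, 12.46 and 12.38 against 9.64, 9.95 and 8.96 (difference 2.85, SE 0.29; adjusted p = 0.0013). No array had it below 8.96. The largest differences were those of Ebf1, the relative of Ebf2 (4.11, SE 0.45), Notch3, the Notch receptor of mural cells (4.10, SE 0.56), Nr2f2, a nuclear receptor (3.49, SE 0.39), and Heyl, a Notch target (3.01, SE 0.51). Angpt1, the angiopoietin that pericytes secrete, was not called (0.62, adjusted p = 0.454). The count was 8 without Ebf2-negative replicate 1 or 3.

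Of 14 smooth muscle contractile genes, 11 were called higher and 0 lower, beside shares of 10.8% and 13.6% over all genes. Their median difference was 2.95. In all 14 the Ebf2-positive arrays stood above the Ebf2-negative arrays without overlap, a property of 21.8% of all genes. Acta2, smooth muscle actin, had the largest difference (7.01, SE 0.32), followed by Tpm2 (5.20, SE 0.26), Myh11, smooth muscle myosin (5.13, SE 0.25), and Myl9, a myosin light chain (5.12, SE 0.57). Des, the intermediate filament protein desmin, and Cnn1, calponin, were not called (0.80 and 0.64, adjusted p = 0.0785 and 0.0758). The pericyte markers were thus higher together with contractile genes, and also with the fibroblast markers, whose median difference was 5.98.

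**Figure D4:**
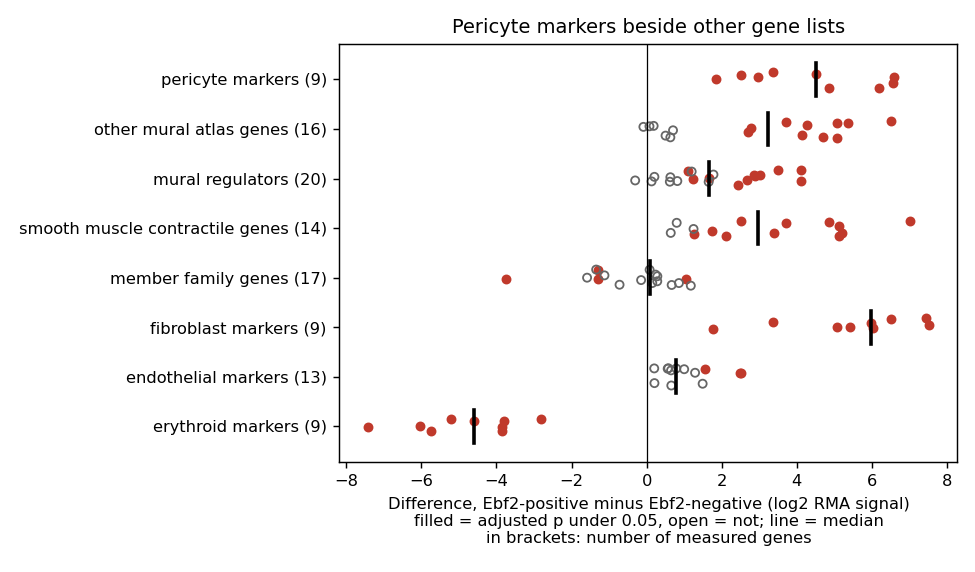
Difference between Ebf2-positive and Ebf2-negative cells on the log2 scale for each measured gene of 8 lists, with filled points for called genes and a line at each median. The medians of the pericyte, other mural and contractile lists are 4.50, 3.24 and 2.95, the family genes of the members lie around 0.08, and the erythroid markers are all below 0.

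Profiles over the 6 arrays were compared between Rgs5 or Kcnj8 and all genes. The measure was the root mean square difference of the log2 profiles, each centred on its gene's mean, and with groups this far apart it is set mainly by the size of the group difference. The nearest to Rgs5 were Mfap5, a microfibril protein (0.15), Sema3c, a secreted guidance protein (0.18), Ahnak2, a scaffold protein (0.25), Vtn (0.27) and Acta2 (0.35). Kcnj8 came at place 9 (0.39) and Rgs4 at place 20 (0.54), whereas Abcc9 was at place 82, Higd1b at 148 (1.14), Mcam at 357 and Anpep at 1225. The nearest to Kcnj8 were Mfap5 (0.32), Smoc2, a matricellular protein (0.33), Lama2, a laminin chain (0.37), Rgs5 (0.39) and Tppp3, a tubulin-binding protein (0.40). Mfap5 was thus the nearest to both, Acta2 was among the 5 nearest to Rgs5, and Rgs5 was among the 5 nearest to Kcnj8.

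How far all members differed depended on the scaling. The poly-A control transcripts added before labelling were brighter on the Ebf2-positive arrays, at 12.32 ± 0.23 (SD, n = 3) against 9.84 ± 1.0. Centring each array on them moved the median of all genes from 0.07 to -2.41. It lowered the difference of every gene by the same 2.48. Which members kept their call therefore followed from the size of their difference before centring. Samples held 1000 or 2000 cells, the sources used here do not give the number for each array, and the part of cell number in the poly-A centred values was not tested. On that scale Rgs5 (4.12), Kcnj8 (4.09), Rgs4 (3.70), Abcc9 (2.39) and Higd1b (2.02) were still called higher. Mcam (0.87, adjusted p = 0.26), Cspg4 (0.50, adjusted p = 0.525) and Ndufa4l2 (0.04, adjusted p = 0.962) were not called, and Anpep changed sign (-0.62, adjusted p = 0.425). The members' median was then 2.02, and 1.25% of all genes were called higher. The contractile list had 5 higher and 2 lower genes there, the other mural list 7 and 6, and the mural regulators 2 and 6. Of the other called genes named above, Ngfr, Mpo, Prtn3, Flt1, Esam, Ldhb, Rgs16, Gna11, Gnaq, Gnas, Ndrg1 and Vegfa changed from a positive to a negative sign. The differences given above are thus relative to the other genes on an array.

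**Figure D5:**
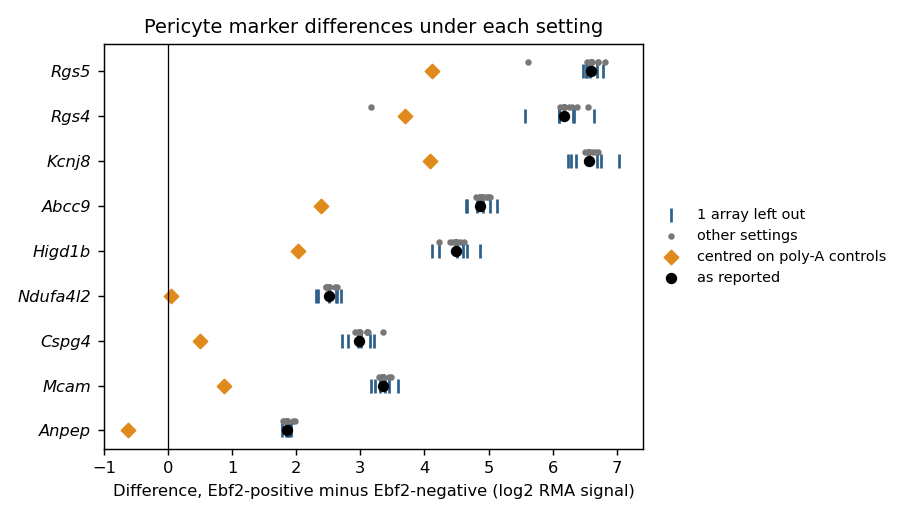
Difference between Ebf2-positive and Ebf2-negative cells for each pericyte marker gene, on the log2 scale, under the reported setting, with 1 array left out and under the other settings. Apart from centring on the poly-A controls, where Anpep falls to -0.62, every setting leaves all members above 0, and the low grey points of Rgs5 and Rgs4 are the means of all their probe sets (5.61 and 3.17).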

How the data were processed

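RNA from samples of 1000 or 2000 sorted marrow cells was amplified in a dual round and hybridized to 6 arrays, per the series' design text. The authors deposited an RMA intensity for each probe set on each array, per the submitters' processing notes. They are on a linear scale, and log2 was taken. RMA equalises the arrays' distributions, so differences in total RNA are not seen. The number of arrays limits the precision.

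The platform annotation named exactly 1 gene for 34945 probe sets, several for 932 and none for 9160, and 64 control probe sets were left out. Updating through RefSeq Entrez identifiers, found for 34754 probe sets, changed 0 symbols. A gene was represented by its brightest probe set over the 6 arrays. The two-sided group test was that of limma 3.58.1 (lmFit, eBayes) under R 4.3.3. P-values were adjusted by Benjamini-Hochberg over genes, and separately over all probe sets, and called under 0.05. The code was tested on simulated data. The 13 gene lists, the members and the rules were chosen with earlier results of these data known. Genes named were all members, the genes of the sort, up to 4 called genes per list with the largest differences (or bright ones where none passed) and the 5 nearest in profile to Rgs5 and Kcnj8. Gnas, Pdgfrb, Vegfa, the neighbouring genes and other genes outside this rule were picked with their values in view. Alternatives covered scaling, filters, probe set rule, variance model, block and left-out arrays. Figures were drawn with matplotlib 3.10.9.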

Additional observations from a re-analysis of the deposited data

How the results depend on the processing

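All 9 pericyte markers were called higher under 16 of 19 alternatives, among them every left-out array (count 9 to 9, adjusted p up to 0.0129), both other centrings, array weights, treat with a minimum difference of 1 and the replicate number as a block. The filter at a mean of 5 removed Anpep and Higd1b and that at 6 on 3 arrays removed Anpep, leaving 7 and 8 members, all called. Centring on poly-A controls left 5 called, with Mcam at 0.87, Cspg4 at 0.50 and Ndufa4l2 at 0.038 no longer past the threshold and Anpep reversed at -0.62. It also gave 7 called contractile genes, 5 higher and 2 lower, and 15823 of all genes, 227 higher and 15596 lower, against 4430. Requiring a minimum log2 difference of 1 gave 6 mural regulators, 7 contractile genes and 1433 genes in all. Leaving out 1 array gave 2690 (without Ebf2-negative replicate 3) to 4348 genes in all, 8 to 12 mural regulators, 9 to 10 contractile genes and 10 to 11 other mural genes. The Kcnj8 to Abcc9 ratio then differed by 1.55 to 1.91 and the Rgs5 to Rgs4 ratio by 0.14 to 0.91.

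Arrays share replicate numbers, and the labels do not say whether same-numbered arrays belong together. Deviations of same-numbered arrays correlated at 0.06, 0.11 and 0.03 over genes, and those of differently numbered arrays at -0.10 to 0.04. The same-numbered values were low, but each was the highest for its Ebf2-positive array. The number was not taken as a pairing in the main fit, and an effect shared by same-numbered arrays was not tested. With the replicate block all 9 members stayed called and 4219 genes passed in all.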
